A study of Danio rerio with 9 samples.

Results

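The end of zebrafish (Danio rerio) gastrulation was followed over 3 consecutive stages, 75% epiboly, 90% epiboly and tailbud, which are 3 of the 9 stages of an embryonic time course. The 3 stages were taken by label and not by measured values, though earlier results of these data were known. Each stage was measured once, on 1 spotted oligonucleotide array that carried stage RNA in the red channel (Cy5) against a pool of RNA from all 9 stages in the green channel (Cy3). Per the labels, every stage sample was a pool of 30 to 50 uninjected embryos of outbred wild-type stock, taken from a single clutch and kept at 28.5 °C, so that no genotype or treatment separated the samples. Of 16178 probe IDs on the array, 15731 gave a spot brighter than its surroundings in at least 1 channel on each of the 3 arrays and were counted. All values are log2 ratios of stage over pool after loess normalization within each array. A value of 0 is the usual ratio of probes of similar brightness on that array, and 1 is 2-fold above it. It is not a measured equality with the pool.

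Epiboly is the thinning and spreading of the blastoderm over the yolk cell, and the percentage in a stage name is the share of the yolk already covered. During the same period cells move inward to form mesoderm and endoderm and converge on the dorsal side, where the body axis lengthens. The tailbud stage is reached when the blastoderm closes over the vegetal pole and a swelling forms at the posterior end of the axis, from which trunk and tail tissue later arises. Zygotic transcription is well under way by then, and many transcripts that the mother placed in the egg have been degraded.

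No stage had a replicate. No test between stages was therefore possible, and every difference below is one between 2 hybridisations of 2 pooled samples. "Rising", "falling", "higher" and "lower" describe the size of such a difference and not a test result. In whole embryos a change in the number of cells that contain a transcript cannot be told apart from a change in its amount per cell, and loess centring makes each ratio relative to the other probes of its array. The files do not pair the CGENXEB_ oligonucleotide IDs with genes, so no gene group or tissue marker could be followed and the labelled stages were not checked against marker genes. Of the 2 probes named by accession, 1 matched a gene. Oligonucleotide sequences were not analysed here.

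The median Cy5 spot signal of the probes was 980 at 75% epiboly, 807 at 90% epiboly and 745 at tailbud, and the median Cy3 signal was 1188, 988.5 and 956. Spots printed with no probe (blanks) gave a measure of what an empty spot looks like, and the 95th percentile of the 262 blank spots in Cy5 was 624, 530.7 and 402.4 on the same arrays. The stage signal exceeded that level for 10891, 10193 and 11274 probe IDs. Of the counted probes 9525 exceeded it at all 3 stages and 3865 at none.

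Most counted probes differed by less than 2-fold in their ratio to the pool over this period. The counted probes included 3865 (24.6%) above the blank level at no stage, for which a small difference does not show a constant transcript. Between 75% and 90% epiboly the log2 difference had a median of -0.01 and an SD over probes of 0.33, and between 90% epiboly and tailbud it had a median of -0.01 and an SD of 0.35. At the first step 121 probes (0.769% of those counted) differed at least 2-fold, and at the second step 168 (1.07%). Across both steps together, from 75% epiboly to tailbud, 521 probes (3.31%) differed at least 2-fold, and the SD of the differences was 0.43. The longer interval thus held over 3 times as many large differences as either step, and for most of them neither step alone reached 2-fold, as given below. That multiple depends on the setting, as the stage channel alone gave 1495 over the interval against 1047 and 422 at the steps. In the ratio, 34 probes (0.216%) differed at least 4-fold between 75% epiboly and tailbud, against 5 probes at each step.

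**Figure D1:**
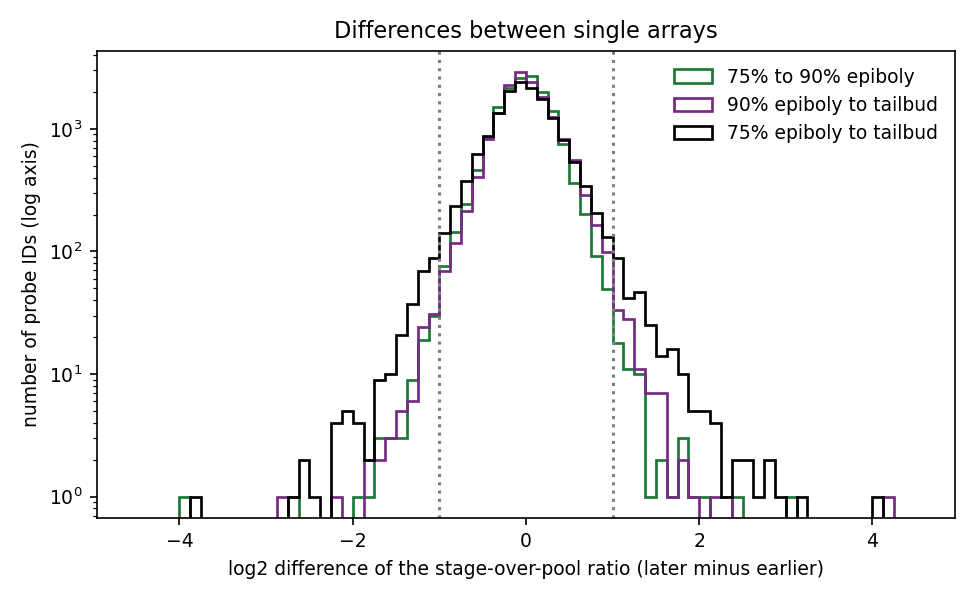
Number of probe IDs (log axis) by log2 difference of the stage-over-pool ratio, later minus earlier stage, for both steps and for the whole interval; dotted lines mark 2-fold. The black outline, 75% epiboly to tailbud, is the widest, with 521 of 15731 probes past 2-fold against 121 and 168 for the single steps.

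The number of higher and lower probes depended on the processing. The first step held 50 probes with a ratio at least 2-fold higher at 90% epiboly (0.318%) and 71 with a lower one (0.451%), while centring each array on its median in place of loess gave 75 and 70. At the second step 93 were higher (0.591%) and 75 lower (0.477%) at tailbud, and the stage channel alone gave 158 and 264. Over the whole interval 267 were higher (1.7%) and 254 lower (1.61%). Median centring gave 325 and 260. The authors' value table, which is neither centred nor normalized, gave 301 higher and 1339 lower, and with each array's median subtracted 477 and 984. No direction is therefore given for the stage as a whole. In the stage channel alone 190 of the 267 higher and 135 of the 254 lower probes stayed past 2-fold, and 11 and 7 had the opposite sign. With spot medians 232 and 226 stayed past 2-fold, and with loess within print blocks 228 and 201. The fullest of the 32 print blocks, block 29, held 24 of the 267 higher probes (8.99%), though only 473 of the 15731 counted probes. All counted probes of block 29 had a median difference of 0.27 over the interval, the highest of any block. Block 23 held the most lower probes, 20 of the 254, and 464 of all counted probes. Its median difference was the lowest, -0.18. How far placement on the array enters these counts was not tested. Loess within print blocks gave 259 higher and 233 lower probes in all.

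The same pool RNA lay on every array and showed how far 1 channel can drift between hybridisations. In the pool channel alone, quantile normalized over the 3 arrays, 417 probes differed at least 2-fold between the 75% and 90% epiboly arrays and 101 between the 90% epiboly and tailbud arrays. The stage channel alone, treated in the same way, held 1047 and 422 such probes. Differences in the pool channel were thus more frequent at the first step, where those in the ratio were fewer. The ratio sets stage and pool of the same spot against each other, so single-channel counts and ratio counts are not on the same scale. The spread within an array, which leaves out drift between hybridisations, came from the 126 counted IDs printed on more than 1 spot (287 spots). The SD of the log2 difference between spots of an ID had a median of 0.18 at the first step, 0.19 at the second and 0.22 over the interval.

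The 521 probes that differed 2-fold between 75% epiboly and tailbud were chosen without the 90% epiboly ratio, which can then show the path between the ends. That array entered only through the rule that a counted probe be brighter than its surroundings on each array. Of the 267 higher probes, 246 (92.1%) had a 90% epiboly value between the values of the other stages, and of the 254 lower probes 233 (91.7%). Over all counted probes the share was 41.9%. Choosing probes on a wide gap between the ends makes a value in between more likely. Some or all of this excess can follow from the choice, and how much was not tested. Over all counted probes the 90% epiboly array stood at a median of 48.4% of the log2 difference between the ends (interquartile range -15.2% to 114%). Among the higher probes it had covered a median of 43.1% of the total log2 difference (interquartile range 24.3% to 66.9%), and among the lower probes 44.0% (27.1% to 62.7%). The second step was the larger one for 156 of the 267 (58.4%) and for 150 of the 254 (59.1%), against 50.7% of all counted probes. Among probes above blanks at all 3 stages this share was 52.1% of the 167 higher and 62.6% of the 190 lower probes. By 90% epiboly these had covered medians of 47.1% and 42.3% of the total log2 difference. The larger second step of the higher probes was not seen in the stage channel alone. Their median ratio difference was 0.59 and then 0.76, but 0.79 and then 0.61 in the stage channel. For the 254 lower probes the ratio gave -0.56 and -0.71, and the stage channel -0.37 and -0.71.

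The higher probes had a median log2 ratio of -0.31 at 75% epiboly, 0.30 at 90% epiboly and 1.07 at tailbud. Their median thus passed from below 0 to about 1. The lower probes had medians of 0.16, -0.50 and -1.15, the opposite course. For both groups the difference between the ends is set by the choice of the probes. For 164 of the higher and 171 of the lower probes neither step alone reached 2-fold. In the stage channel alone the median difference over the interval was 1.40 for the higher and -1.07 for the lower probes. In the pool channel it was 0.07 and 0.17. Both channels are part of the ratio used for the choice.

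Of the 267 higher probes, 167 exceeded the blank level at all 3 stages (62.5%, against 60.5% of all counted probes), 41 exceeded it at 90% epiboly and tailbud but not at 75% epiboly, 36 only at tailbud and 16 at none. Of the 254 lower probes, 190 exceeded it at all 3 stages (74.8%), 17 only at 75% epiboly, 16 at 75% and 90% epiboly but not at tailbud, and 28 at none. Over all counted probes 2.68% exceeded it at 90% epiboly and tailbud alone, 3.90% only at tailbud, 3.67% only at 75% epiboly, 0.515% at 75% and 90% epiboly alone and 24.6% at none. Where a stage lies under the blank level its value is a ceiling, and the difference is then only a rough figure. Restricted to probes above blanks at all 3 stages, 157 of 167 higher and 173 of 190 lower probes still had the 90% epiboly value in between. The same choice favours these shares too.

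The 6 earlier arrays took no part in the choice of these probes. Their ratios are not independent of it, however, because the pool in every ratio holds RNA of all 9 stages, tailbud included. A level far from the pool at tailbud thus favours ratios on the other side of 0 elsewhere. The 267 higher probes had been low before: their median ratio was -0.85 at the 64-cell stage, -0.79 at sphere, -0.70 at 30% epiboly and -0.40 at shield. Tailbud was the highest of all 9 stages for 240 of them (89.9%, against 16.9% of all counted probes), which the choice of probes high at tailbud favours. Their level at 90% epiboly exceeded that at shield for 228 of 267, while over all counted probes this held for 7564 of 15731. Neither of these ratios was used for the choice, though a counted probe had to be brighter than its surroundings on the 90% epiboly array. The 254 lower probes had their highest median at 30% epiboly, 0.42, after -0.07 at the 64-cell stage. Their individual maxima were spread widely, with 66 at 30% epiboly (26.0%, against 9.73% of all counted probes), 45 at high (17.7% against 12.4%) and 32 at 50% epiboly (12.6% against 9.88%). Another 38 had theirs at 75% epiboly, a stage used in the choice. At 90% epiboly 228 of the 254 lay below shield, against 8167 of all 15731 counted probes. The lowest stage was tailbud, also used in the choice, for 157 of the 254 (61.8%, against 16.7% of all counted probes). It was the 64-cell stage for 71 (28.0%, against 20.4% of all counted probes).

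**Figure D2:**
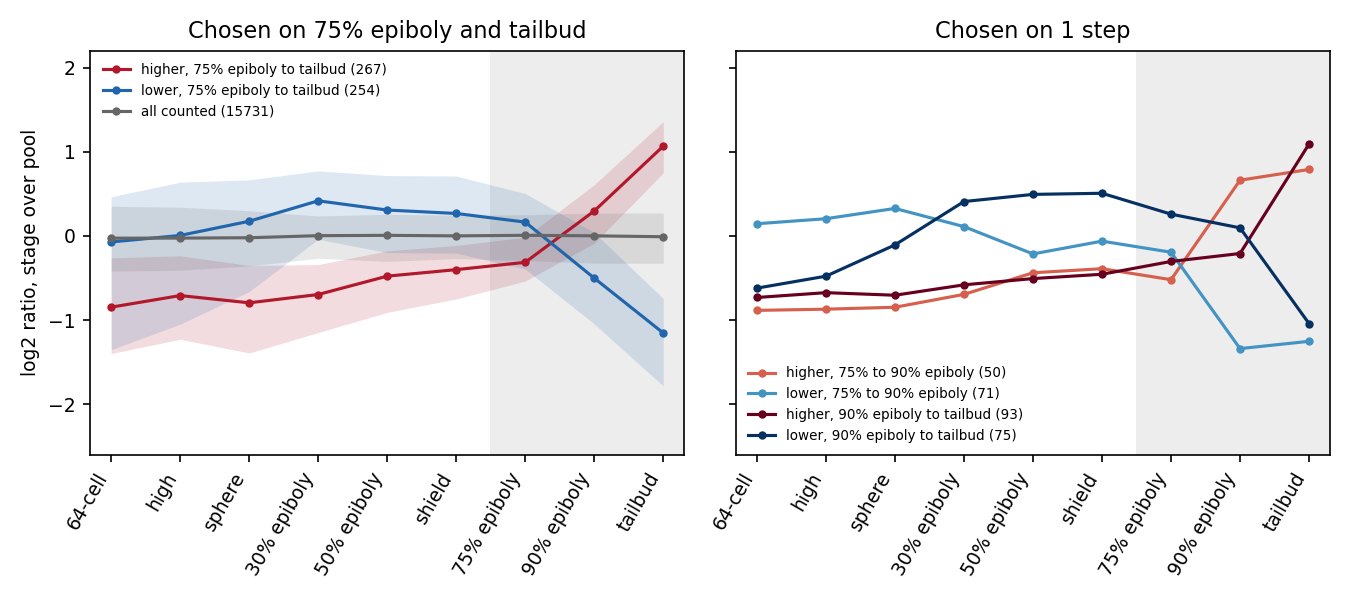
Median log2 ratio of stage over pool (y axis) by stage, 1 array each, with the 3 stages of this course shaded. Left, probes chosen on 75% epiboly and tailbud, with bands for the interquartile range. The higher group climbs from -0.31 to 1.07 and the lower group drops from 0.16 to -1.15, as the choice requires. The median of all counted probes stays near 0 through the loess centring. Right, medians of probes chosen on 1 step.

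Probes were also chosen on a single step. That choice fixes a large difference at the step itself and, because both steps share the 90% epiboly array, favours a small or opposite one at the other. Over all counted probes, 5.06% were at least 1.5-fold higher and 3.66% lower at the second step, and 3.04% higher and 4.19% lower at the first, which is the background for the counts below. The 50 probes at least 2-fold higher at 90% than at 75% epiboly had a median difference of 1.21 at that step and of 0.28 at the next. Of these 50, 31 held their new level within 1.5-fold at tailbud, 11 went at least 1.5-fold further and 8 went back at least 1.5-fold. At tailbud 39 of the 50 were still at least 2-fold above 75% epiboly. The 71 lower probes had a median of -1.14 and then 0.26. Their median at the second step was 0.04 in the stage channel alone and -0.18 in the pool channel. For the 50 higher probes these were 0.23 and 0.03. These are medians over whole groups, and single channels are not on the scale of the ratio. Among the 71, 49 held, 8 went further and 14 went back, and 36 were still at least 2-fold below 75% epiboly at tailbud. Whether the return of the 14 lay in the stage or the pool channel was not tested. The 5 of 32 print blocks that held the most of each group held 38 of the 71 and 23 of the 50. For all 15731 counted probes the 5 fullest blocks held 2563. Blocks picked as the fullest hold a larger share of a small group in any case, and uneven placement was not tested. Loess within print blocks kept 46 of the 71 and 39 of the 50 past 2-fold.

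The second step was read backwards in the same way. The 93 probes at least 2-fold higher at tailbud than at 90% epiboly had differed by a median of 0.07 at the first step, and 64 of them had stayed within 1.5-fold there. For 19 the first step had already been at least 1.5-fold in the same direction and for 10 in the opposite one. The 75 lower probes had a median of -0.05 at the first step, with 53 within 1.5-fold, 13 already lower and 9 higher before. The 5 fullest print blocks, again picked for each group, held 40 of the 93 and 28 of the 75. Loess within print blocks kept 69 of the 93 and 51 of the 75 past 2-fold. Of the 93 higher probes, 26 exceeded the blank level only at tailbud and 44 at all 3 stages, against 3.90% and 60.5% of all counted probes. A high tailbud value was what chose these 93, and the blank level was lowest on the tailbud array, so the pattern is partly set by the choice. Among the 75 lower probes 64 exceeded the blank level at all 3 stages.

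The lower groups of the 2 steps had different medians on the earlier arrays, with overlapping spreads. Probes lower at the first step had positive medians early, 0.14 at the 64-cell stage and 0.33 at sphere, then 0.11 at 30% epiboly, -0.21 at 50% epiboly, -0.06 at shield and -0.19 at 75% epiboly, ahead of the step that chose them. Probes lower at the second step had started at -0.62 at the 64-cell stage and stood at 0.41 at 30% epiboly, 0.49 at 50% epiboly and 0.51 at shield before they dropped. The interquartile ranges of the 2 groups at the 64-cell stage were -1.15 to 0.77 and -2.08 to 0.13. At shield they were -0.70 to 0.36 and -0.01 to 0.83. Whether the 2 groups differ was not tested. The higher groups of both steps had similar early medians, -0.88 and -0.73 at the 64-cell stage.

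Whether changes continued or turned back was read from both steps of each probe. The steps share the 90% epiboly array, so an error of that array moves them in opposite directions and creates reversals. At 2-fold in each step, 5 probes rose at both (0.0318%), 4 fell at both (0.0254%), 5 rose and then fell (0.0318%) and 2 fell and then rose (0.0127%). At 1.5-fold in each step, 48 probes rose at both (0.305%), 37 fell at both (0.235%), 33 rose and then fell (0.21%) and 141 fell and then rose (0.896%). By construction the total difference is large for continuing and small for reversing probes. Its median over the interval was 1.75 for the 48 and -1.66 for the 37, and -0.12 and 0.00 for the reversing classes.

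**Figure D3:**
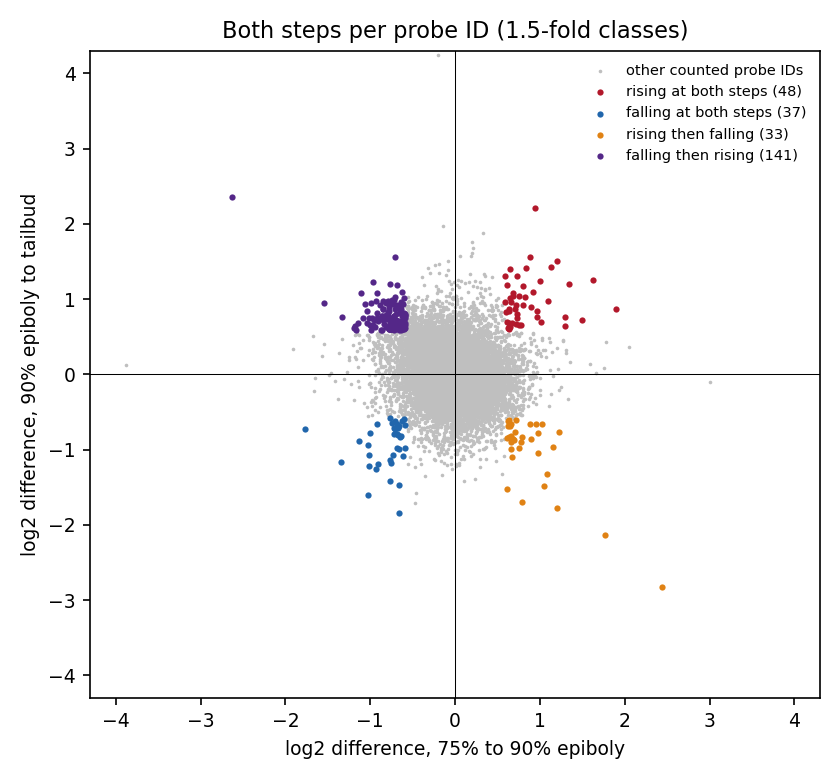
Log2 difference at the first step (x axis) against that at the second (y axis) for every counted probe ID; coloured points differed at least 1.5-fold at both steps, and the key gives their number. The 2 steps share the 90% epiboly array, and an error of that array shifts a point toward the upper left or the lower right corner. The upper left corner, falling then rising, holds 141 probes against 33 to 48 in the others.

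The probes that fell and then rose were not spread evenly over the array. Spots were printed in 32 blocks, and block 4 alone held 51 of the 141 probes (36.2%), block 32 held 20 and block 20 held 13. Among all counted probes no block held more than 3.27%. In block 4 the median of all 468 counted probes was -0.02 at 75% epiboly, -0.41 at 90% epiboly and 0.02 at tailbud, so that the whole block was low on 1 array. When loess was fitted within each block, 44 probes fell and then rose, 34 of them among the 141. None of the 44 lay in block 4. The other classes changed less in number under the same setting, though not all their members stayed. There were 53 probes rising at both steps, 37 of them among the 48, and 40 falling at both, 31 of them among the 37. Another 34 rose and then fell, 20 of them among the 33. The 33 probes that rose and then fell included 15 (45.5%) with a Cy5 image flag on at least 1 of the 3 arrays, against 16.3% of all counted probes. Leaving out spots with a Cy5 flag gave 18 probes that rose and then fell, and spot medians in place of means gave 23.

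**Figure D4:**
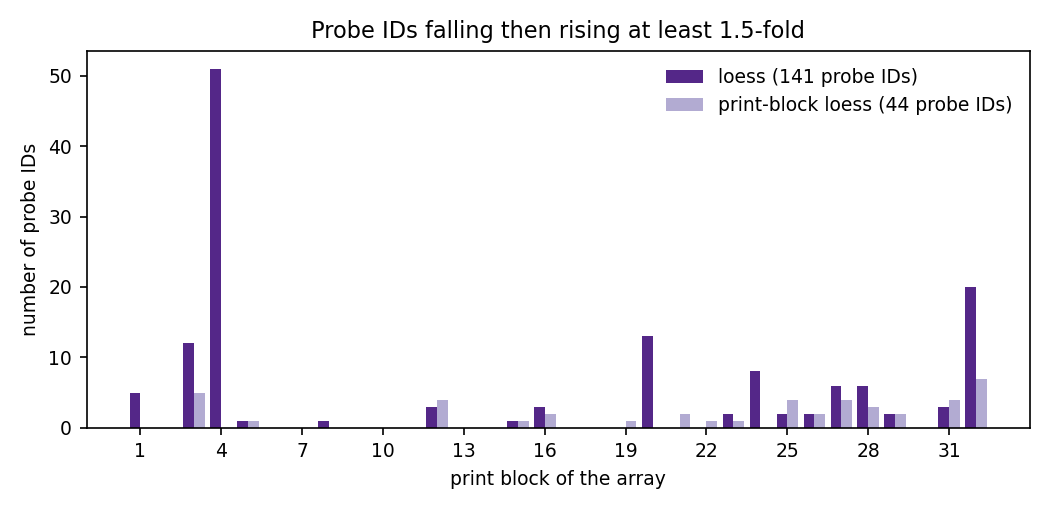
Number of probe IDs that fell and then rose at least 1.5-fold (y axis, starting at 0) in each of the 32 print blocks of the array (x axis), after loess over the whole array and after loess within each block. Block 4 holds 51 of 141 probes in the first setting and none of 44 in the second.

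The probe with the largest smaller step was taken from each kind of course, among probes above blanks on all 3 arrays and below saturation. CGENXEB_456001035_0 was higher at both steps. Its log2 ratio was -1.23 at 75% epiboly, 0.40 at 90% epiboly and 1.64 at tailbud, and its Cy5 signal was 5044, 21643 and 41814. It differed by 1.62 at the first step and by 1.25 at the second, 7.32-fold in all. At the 64-cell stage it had stood at -4.28 and at shield at -3.31, so that the climb continued one from earlier stages. The opposite probe was CGENXEB_456000442_0, with ratios of -0.02, -1.36 and -2.52 and Cy5 signals of 10537.5, 7858 and 2399.5. Its Cy3 signals were 8854, 14542 and 12464. At the first step its ratio differed by -1.34, but the stage channel alone by -0.68, under 2-fold, and the pool channel by 0.62. Its ratio was 5.66-fold lower at tailbud than at 75% epiboly. Earlier its ratio had increased, from -4.33 at the 64-cell stage to 0.96 at shield.

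The probe that rose and then fell, CGENXEB_456012501_0, had ratios of 0.62, 2.40 and 0.26, a difference of 1.77 followed by -2.14. Its spot on the 90% epiboly array carried a Cy5 image flag. Its Cy5 spot medians of 2151, 2615.5 and 2535 barely differed, and with spot medians in place of means the first step was 0.22 and the second -0.57. The probe that fell and then rose, CGENXEB_456010428_0, had ratios of 0.05, -1.06 and 0.03, a difference of -1.11 followed by 1.09. Its Cy5 signals were 2440, 1237 and 1822. It lay in block 32, which held 20 of the 141 probes of its kind. Within-block loess gave -1.03 and 0.97.

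The 1 probe that could be named measured rarga (NM_131339). The receptor made from this gene, retinoic acid receptor gamma a, binds DNA together with a partner of the RXR family and switches on its targets when retinoic acid is present. Retinoic acid made in the trunk patterns the hindbrain and the somites of vertebrate embryos. The ratio of the rarga probe was -0.76 at 75% epiboly, 0.12 at 90% epiboly and 0.61 at tailbud, and its Cy5 signal was 1097.5, 2218.5 and 2378.5. It was above the blank level on all 3 arrays. On the earlier arrays the ratio had been 0.44 at the 64-cell stage, 0.30 at high, -1.29 at 30% epiboly and -0.92 at shield. The increase thus followed an earlier fall. The values increased at both steps, by 0.89 and then 0.49, so that neither step reached 2-fold while the whole interval amounted to 2.59-fold. Over 11 other settings the first step lay between 0.77 and 1.22 and the second between 0.32 and 0.73. The first was past 2-fold in the stage channel alone, at 1.22, and in the value table with medians subtracted, at 1.03. The rarga probe ranked 90 among the 15731 probes by its difference over the interval, at the 99.4th percentile. Under the same settings that difference lay between 1.24 and 1.54. Its Cy3 spot signal on the same arrays was 1860, 2066.5 and 1744, and the pool channel after normalization differed by 0.05 over the interval. The probe had 1 spot per array, so no spread between spots was available for it.

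**Figure D5:**
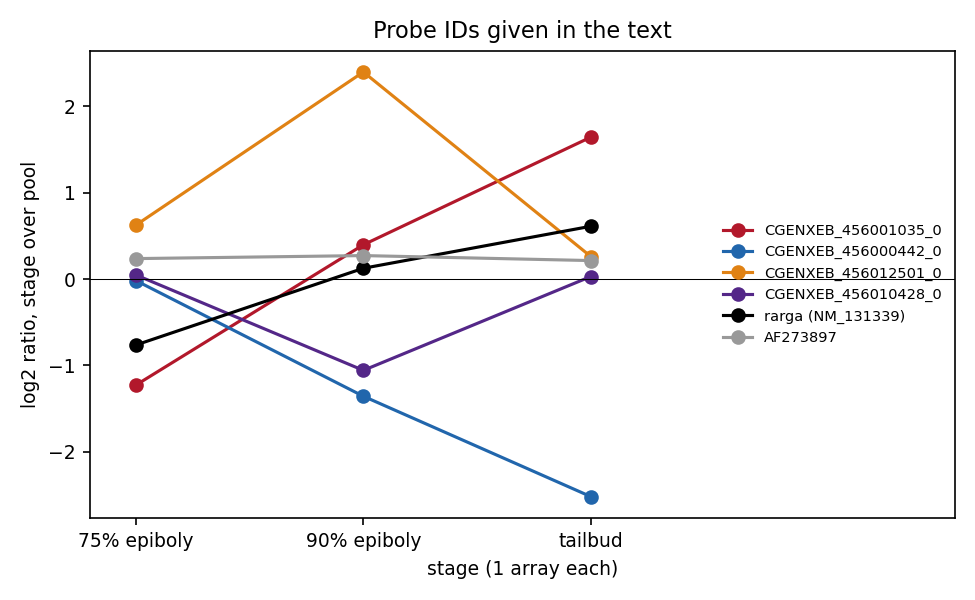
Log2 ratio of stage over pool (y axis) at the 3 stages (x axis, 1 array each) for the 4 probes chosen by their course and the 2 accession probes; points are single arrays without error bars. rarga increases from -0.76 to 0.61, and AF273897 stays between 0.21 and 0.27.

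The other accession probe, AF273897, matched no gene in the table used. Its ratio was 0.24, 0.27 and 0.21, and its Cy5 signals of 386, 273 and 233.5 did not exceed the blank level on any of the 3 arrays. Its flat course therefore gives no level of a transcript.

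Set beside the rest of the series and with the same probes, the 2 steps were among the quieter ones. The 121 and 168 probes past 2-fold compare with 353 from shield to 75% epiboly, 2225 from sphere to 30% epiboly and 45 from 50% epiboly to shield. These are differences between single arrays, and the order of the steps was not tested.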

How the data were processed

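The deposited scanner tables, ImaGene output of both channels combined per the file headers, hold mean and median spot intensity and local background on a linear scale, not normalized. No source used here gives the image settings or what a flag stands for. Only flags of the Cy5 channel were read. Per the labels, RNA was amplified from 800 ng of total RNA. Stage RNA was Cy5 on all arrays; the series text speaks of dye swaps, and no swapped array was analysed here, so a dye effect stays in each ratio and cancels between stages only where constant. The deposited value table holds log2 values by the authors. They equalled log2 of red over green, background means subtracted, within 0.001 for 99.2% of the IDs at tailbud, so they were read as stage over pool, uncentred (column medians -0.36, -0.41 and -0.51). Its probe prefix differs by 1 letter, which was replaced.

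Normexp with offset 50 was applied to the mean spot signals and median backgrounds, then loess per array with control spots at weight 0 (limma 3.58.1, R 4.3.3). Spots of an ID were averaged. Counted probes had, on each of the 3 arrays, a median signal more than 2 background SD over the local background in Cy5 or Cy3, which left out 447 IDs. Single channels were quantile normalized over the 3 arrays. Counting was checked on simulated data. With 1 array per stage no test was possible, and the number of arrays limits precision. Named probes are the one with the largest smaller step of each of the 4 kinds of course, plus the 2 accessions. rarga was named through RefSeq (assembly GRCz12tu, for the name only). Members and lists were chosen with earlier results of these data known. Gene lists could not be applied. Counts were repeated under 11 other settings of background correction, spot summary, normalization, filter and source of values. The settings without flagged spots and with all 3 arrays above blanks were added after the data were seen, as was counting the 1.5-fold classes under each setting.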

Additional observations from a re-analysis of the deposited data

Results flagged for a closer look

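Some control spots, left out of every count, gave a stage signal far above the blank spots on all 3 arrays. The lowest multiple of the 95th percentile of blanks was 57.9 for the 172 spots of CGENZFCTRL_40001_0, 40.1 for the 31 spots named Pooled Control and 5.46 for the 16 spots named polyA. The log2 ratio of the polyA spots was 0.67 ± 0.22 (SD over 16 spots) at 75% epiboly, 0.04 ± 0.20 at 90% epiboly and 0.81 ± 0.21 at tailbud, a dip larger than the spread between spots. The ratio of CGENZFCTRL_40001_0 was -0.11 ± 0.27 (SD over 172 spots), -0.04 ± 0.46 and 0.09 ± 0.23 at the same stages. No source used here says which RNA these spots measure.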

How the results depend on the processing

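No paired analysis was possible because each stage had 1 array. For the same reason no array could be left out within a stage. Counts are given in the order higher and lower; classes are those of both steps. Under print-block loess, 1 of 14 counts moved by over 1.5 times, the 44 probes falling then rising at 1.5-fold (141 in the setting used); under spot medians it was 1 probe rising then falling at 2-fold (5), and with no filter 4 falling then rising at 2-fold (2). Without background subtraction the first step held 32 and 43, the second 49 higher, and the interval 174 and 169, with 3 rising at both, 2 falling at both, 3 rising then falling and 1 falling then rising at 2-fold, and 23 falling at both, 21 rising then falling and 65 falling then rising at 1.5-fold. Median centring gave 8 rising at both, 2 falling at both and 4 falling then rising at 2-fold, and 52 rising then falling at 1.5-fold. Leaving out flagged spots gave 2 falling at both, 1 rising then falling and 1 falling then rising at 2-fold, and 18 rising then falling at 1.5-fold. With only probes above blanks on all 3 arrays counted, 31 were higher at the first step, 46 at the second and 168 over the interval. The second step then held 67 lower probes, more than its 46 higher ones. In the setting used it held 93 higher and 75 lower. The value table gave 127 and 562, then 147 and 635, and 1339 lower over the interval; its classes were 8 rising at both, 30 falling at both, 16 rising then falling and 32 falling then rising at 2-fold, and 267 falling at both, 148 rising then falling and 299 falling then rising at 1.5-fold. With medians subtracted it gave 161 and 469, 206 and 467, and 477 and 984; its classes were 11, 22, 17 and 44 at 2-fold and 88, 184, 133 and 392 at 1.5-fold, in the same order. The stage channel alone gave 399 and 648, 158 and 264, and 726 and 769, with 17 rising at both, 37 rising then falling and 12 falling then rising at 2-fold, and 123, 87, 340 and 249 at 1.5-fold. The causes of these shifts were not tested. No named probe reversed a difference of at least 1.5-fold in any alternative. For the 3865 counted probes above blanks at no stage the signal over background limits what can be measured.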

Other observations

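The 16 control spots named zGenomic had a median Cy5 signal 1.89 times the 95th percentile of blanks at 75% epiboly, against 0.82 times at 90% epiboly and 0.79 times at tailbud. Their log2 ratio was -0.40 ± 0.25 (SD over 16 spots), -1.22 ± 0.30 and -1.34 ± 0.32. No source used here says what these spots carry.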
